A study of Mus musculus with 12 samples.

Results

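The transcripts described here were those of 7 genes that encode small GTPases of 2 atypical branches, Rnd (Rnd1, Rnd2, Rnd3) and RGK (Gem, Rrad, Rem1, Rem2), out of 20775 genes listed for mouse hearts that had lost Med30, a subunit of the Mediator complex that links transcription factors to RNA polymerase II. The 7 genes were chosen from measured values, namely their levels in knockout and control samples at both stages. Their levels, differences and calls are therefore given as a description and not as a test. All 4 groups were on a C57BL/6 background and held 3 samples each. The E10.5 cKO hearts carried Med30 f/f alleles, in which exon 1 is floxed, with a Tnnt-Cre transgene that is active in cardiomyocytes from early heart development, and the E10.5 Ctrl hearts were Cre-negative Med30 f/f littermates. The icKO samples were cardiomyocytes from mice of 3 months that carried Med30 f/f with the tamoxifen-inducible αMHC-MerCreMer transgene, taken 4 weeks after tamoxifen (post-TAM), and their Ctrl samples were Cre-negative Med30 f/f littermates that had also received tamoxifen. The sample labels call the controls wild type and the source heart in all 12 samples, while the extraction notes name isolated cardiomyocytes at 4 weeks. All floxed mice came from a targeted embryonic stem cell clone, and because no Cre-positive group with intact Med30 is among the sequenced samples, effects of Cre on these transcripts cannot be told apart from those of Med30 loss. Whether a sample was a single heart or a pool was not given in the sources used here, so p-values measure the spread between these samples.

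Rnd proteins are small GTPases that hydrolyse GTP little or not at all, so that they stay in the active state and are governed by their amount, localisation and phosphorylation. They oppose the contractile arm of RhoA and its kinase ROCK, in part through the p190 RhoGAP proteins, and bind plexin and Unc5b receptors. RGK proteins belong to the Ras superfamily and bind the β subunits of high-voltage-activated calcium channels. They lower the L-type calcium current, and Rad, the product of Rrad, is the RGK protein best known in the heart muscle cell, where its phosphorylation by protein kinase A releases the channel during adrenergic stimulation.

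The 2 branches end differently, and the last 36 coding bases, stop codon included, of 6 genes are shown because they hold the cysteine by which the branches are told apart. They were read from the RefSeq-matched GENCODE transcript of each gene (GRCm38), with the cysteine codon in capitals.
Rnd2: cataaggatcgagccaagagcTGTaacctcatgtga
Rnd3: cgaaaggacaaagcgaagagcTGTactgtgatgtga
Gem: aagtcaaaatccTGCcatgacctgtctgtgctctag
Rrad: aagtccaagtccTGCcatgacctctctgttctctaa
Rem1: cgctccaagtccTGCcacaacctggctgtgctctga
Rem2: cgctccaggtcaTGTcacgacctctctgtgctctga
In Rnd2 and Rnd3 the cysteine is codon 4 counted back from the last, the position that a lipid anchor needs. In the 4 RGK genes it is codon 7 counted back, within an ending that carries no such anchor signal. The coding sequences ran from 227 codons in Rnd2 to 341 in Rem2. The longest run of identical bases between any pair of these 6 transcripts was 23, shared by Rrad with Rem1.

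In GRCm38 coordinates, Rnd1 lies at chr15:98663421-98677461 on the minus strand, Rnd2 at chr11:101464999-101471853 on the plus strand and Rnd3 at chr2:51130438-51149111 on the minus strand. Gem lies at chr4:11704457-11714752 on the plus strand and Rrad at chr8:104628070-104631327 on the minus strand. Rem1 lies at chr2:152626951-152635198 and Rem2 at chr14:54476100-54480431, both on the plus strand. Rnd2 shares 226 of 1990 exonic bases with Vat1 on the other strand, and Rrad shares 141 of 1577 with Gm33023. Whether counting used strand was not given in the sources used here, and without strand the reads of such partners cannot be told apart.

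Levels are in RPKM, a read count divided by gene length and by library size, so that genes of unlike length can be set side by side within a table. Differences are knockout minus Ctrl on the log2(RPKM + 0.1) scale. A gene was tested where its mean RPKM over the 6 samples of a stage was above 1, and was called where the adjusted p of limma was below 0.05 and the difference was beyond 1 in either direction. The steps between low RPKM values gave an estimated 13700000 to 20000000 reads per sample at E10.5 and 12000000 to 17500000 at 4 weeks. Med30 itself, at chr15:52712408-52730564, was 10.6, 13.3 and 11.3 RPKM in the E10.5 Ctrl samples and 1.38, 2.02 and 1.004 in cKO (log2 difference -2.96, limma adjusted p = 0.000367). At 4 weeks it was 7.66, 7.45 and 7.66 RPKM in Ctrl and 3.81, 3.16 and 1.82 in icKO (log2 difference -1.40, limma adjusted p = 0.000403). The targeted transcript was thus lower in every knockout sample of both tables than in every Ctrl sample, and some of it remained in each. The median difference over all genes tested was -0.13 at E10.5 and 0.57 at 4 weeks, and it moved to -0.01 and 0.03 when the samples were rescaled by median ratios. The 2 tables were normalised separately and hold whole hearts at one stage and isolated cardiomyocytes at the other, so no test was run between them.

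At 4 weeks the summed levels of the branches stood on opposite sides, that of RGK being almost all Rrad in Ctrl. Gem, the other RGK gene with a difference there, was higher in icKO like the Rnd genes. The summed Rnd level was 3.10 to 4.46 RPKM in Ctrl and 59.2 to 68.2 RPKM in icKO, whereas the summed RGK level was 50.3 to 112 RPKM in Ctrl and 8.94 to 11.4 RPKM in icKO. At E10.5 the summed Rnd level overlapped, at 31.3 to 38.0 RPKM in Ctrl and 27.9 to 36.7 RPKM in cKO. The summed RGK level at E10.5 was 31.9 to 44.8 RPKM in Ctrl and 21.7 to 28.1 RPKM in cKO, without overlap.

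**Figure D1:**
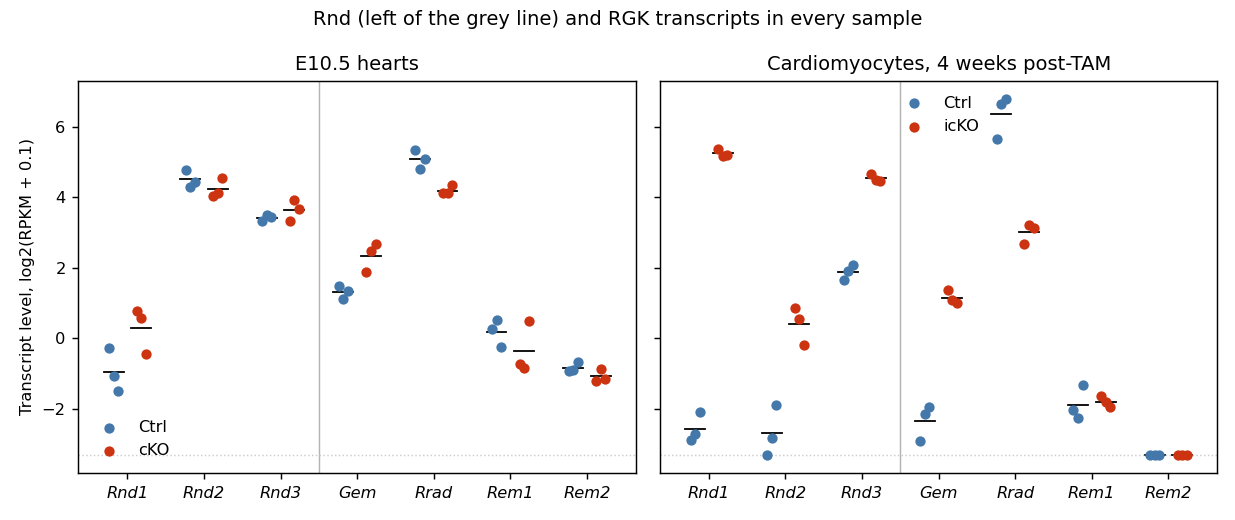
Level of each of the 7 genes in every sample on the log2(RPKM + 0.1) scale, E10.5 hearts on the left and cardiomyocytes 4 weeks post-TAM on the right, with Ctrl in blue, knockout in red and a bar at the mean of 3 samples. At 4 weeks Rnd1, Rnd2, Rnd3 and Gem lie higher in every icKO sample and Rrad lower, and the dotted line marks 0 RPKM, where Rem2 sits in all 6 samples.

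Rnd1, which encodes an antagonist of RhoA that lowers cell contractility and adhesion, was close to absent from control cardiomyocytes. It was 0.034, 0.052 and 0.134 RPKM in the 4-week Ctrl samples and 41.2, 36.2 and 36.5 RPKM in icKO. The control values correspond to an estimated 1, 2 and 5 reads, and the icKO values to an estimated 1534, 1333 and 961 reads. The groups were far apart, with every icKO sample above every Ctrl sample. The log2 difference was 7.82 ± 0.21 (SE, n = 3), 7.25 once the median difference of all genes is taken off, and it moved from 5.18 with a pseudocount of 1 to 9.02 with a pseudocount of 0.01, since the control level was a few reads. At E10.5 Rnd1 was 0.723, 0.371 and 0.253 RPKM in Ctrl and 1.60, 1.39 and 0.626 RPKM in cKO. There the groups overlapped, since cKO replicate 3 was below Ctrl replicate 1, and with a mean RPKM under 1 the gene was not tested (log2 difference 1.25).

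Rnd2, best known for neuronal migration, was detected mainly in the E10.5 hearts, which differ from the 4-week samples in tissue and stage. At E10.5 it was the highest of the Rnd genes in every sample, at 27.5, 19.7 and 21.7 RPKM in Ctrl and 16.4, 17.4 and 23.5 RPKM in cKO, and the groups overlapped (log2 difference -0.27 ± 0.17, SE, n = 3). At 4 weeks it was 0, 0.041 and 0.169 RPKM in Ctrl and 1.70, 1.37 and 0.779 RPKM in icKO. These values correspond to an estimated 0, 1 and 4 reads in Ctrl and 40, 32 and 13 reads in icKO. All icKO samples were above all Ctrl samples, although the mean of the 6 stayed under the limit for testing. Vat1, the gene on the other strand, was 0.940, 0.914 and 1.18 RPKM in Ctrl and 9.77, 9.12 and 8.17 RPKM in icKO, and its part in the Rnd2 values was not tested.

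Rnd3, also called RhoE, binds ROCK1 and p190 RhoGAP and made up most of the Rnd transcripts of control cardiomyocytes. It was 3.07, 3.69 and 4.16 RPKM in the 4-week Ctrl samples and 25.3, 22.2 and 21.9 RPKM in icKO, a ratio of means of 6.36. Each group was tight and every icKO sample was above every Ctrl sample. The log2 difference was 2.64 ± 0.13 (SE, n = 3), which is 2.08 relative to the median of all genes and 2.11 after median-ratio scaling. At E10.5 Rnd3 was 9.85, 11.2 and 10.8 RPKM in Ctrl and 9.87, 15.1 and 12.5 RPKM in cKO. The lowest cKO sample was at the level of the lowest Ctrl sample, and the log2 difference was 0.21 ± 0.16 (SE, n = 3).

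The make-up of the Rnd transcripts overlapped between genotypes at E10.5 and did not at 4 weeks for Rnd1 and Rnd3. At E10.5 Rnd2 was 62.9 to 72.2% of the summed Rnd level in Ctrl and 51.4 to 64.2% in cKO, Rnd3 was 25.9 to 35.9% and 34.1 to 44.6%, and Rnd1 was 0.772 to 1.90% and 1.71 to 5.74%. In control cardiomyocytes at 4 weeks Rnd3 was 93.2 to 98.9% and Rnd1 was 1.1 to 3.0%. In icKO cardiomyocytes Rnd1 was 60.4 to 61.6% and Rnd3 was 37.1% in each of the 3 samples. Shares within a sample do not change where a whole sample is divided by a single factor, as in median-ratio scaling, though they can under quantile normalisation.

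**Figure D2:**
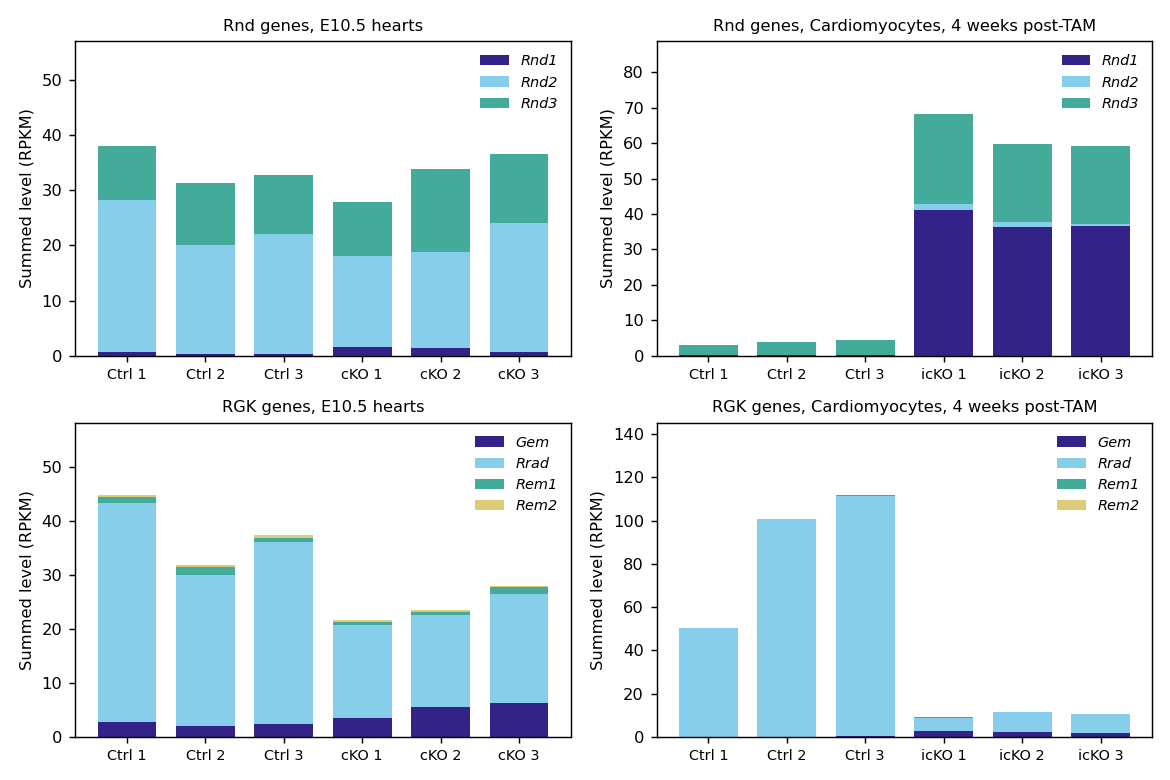
Summed RPKM of the Rnd genes (upper row) and of the RGK genes (lower row) in each sample, E10.5 hearts on the left and cardiomyocytes 4 weeks post-TAM on the right, with each gene as a coloured segment and its own vertical axis in each panel. At 4 weeks the Rnd sum goes from at most 4.46 RPKM in Ctrl to at least 59.2 RPKM in icKO, and the RGK sum from at least 50.3 to at most 11.4 RPKM.

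Rrad, the channel-inhibiting RGK gene of heart muscle, was the highest of the 7 genes in control samples at both stages. At 4 weeks it was 50.1, 101 and 111 RPKM in Ctrl and 6.23, 9.21 and 8.64 RPKM in icKO. Ctrl replicate 1 was the lowest of the controls, and still above every icKO sample. The mean fell by 90.8%, with a log2 difference of -3.36 ± 0.28 (SE, n = 3) and one of -3.93 once the median difference of all genes is taken off. Leaving out each sample in turn gave -3.72 to -3.15. At E10.5 Rrad was 40.6, 28.0 and 33.7 RPKM in Ctrl and 17.2, 17.2 and 20.1 RPKM in cKO. Every cKO sample was again below every Ctrl sample, and the mean fell by 46.7% (log2 difference -0.89 ± 0.15, SE, n = 3), which is -0.76 relative to the median of all genes. The gene that shares exonic bases with Rrad, Gm33023, is not among the genes of these tables.

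Gem, an RGK gene whose protein also acts on ROCK and the cytoskeleton, went the other way from Rrad. At 4 weeks it was 0.033, 0.126 and 0.156 RPKM in Ctrl and 2.49, 2.03 and 1.88 RPKM in icKO. Every icKO sample was above every Ctrl sample, with a log2 difference of 3.49 ± 0.33 (SE, n = 3) that was 1.5 with a pseudocount of 1. At E10.5 Gem was 2.69, 2.06 and 2.41 RPKM in Ctrl and 3.58, 5.47 and 6.27 RPKM in cKO. The groups did not overlap there either, with cKO replicate 1 the nearest to the controls. The log2 difference was 1.04 ± 0.22 (SE, n = 3), just past the limit of 1 that a call needs, and it ranged from 0.87 to 1.27 as each sample was left out.

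Rem1, which encodes a further inhibitor of calcium channels, was low at both stages. It was 1.09, 1.33 and 0.734 RPKM in the E10.5 Ctrl samples and 0.497, 0.460 and 1.31 RPKM in cKO, where replicate 3 lay within the control range. At 4 weeks it was 0.142, 0.106 and 0.294 RPKM in Ctrl and 0.221, 0.186 and 0.156 RPKM in icKO, and the groups overlapped, with a log2 difference of 0.09 that turned to -0.26 after median-ratio scaling. Rem2, known mainly from neurons, was 0.422, 0.433 and 0.525 RPKM in the E10.5 Ctrl samples and 0.332, 0.450 and 0.346 RPKM in cKO, also overlapping. It was listed at 0 in all 6 samples at 4 weeks, where 3 reads would have been 0.0908 to 0.133 RPKM.

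Within the RGK transcripts, Gem was 6.00 to 6.46% of the summed level in E10.5 Ctrl and 16.5 to 23.2% in cKO. At 4 weeks it was 0.0656 to 0.140% in Ctrl and 17.6 to 27.8% in icKO. Rrad was 88.0 to 90.6% in E10.5 Ctrl and 71.7 to 79.6% in cKO, and 99.6 to 99.8% in 4-week Ctrl and 69.7 to 80.9% in icKO. The share of Gem was thus higher in every knockout sample than in every control sample at both stages, and whether the shift differed between the stages was not tested.

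The order of the genes changed as well. In E10.5 Ctrl hearts it ran Rrad, Rnd2, Rnd3, Gem, Rem1, Rem2 and Rnd1, and only the neighbours Rem2 and Rnd1 overlapped. In cKO hearts Rnd2 stood first and overlapped with Rrad, and Rnd1 in the fifth place overlapped with Rem1. In 4-week Ctrl cardiomyocytes Rrad stood first and Rnd3 next, and from Rem1 through Gem, Rnd1, Rnd2 and Rem2 each gene overlapped with its neighbour. In icKO cardiomyocytes the order was Rnd1, Rnd3, Rrad, Gem, Rnd2, Rem1 and Rem2, and no neighbours overlapped.

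**Figure D3:**
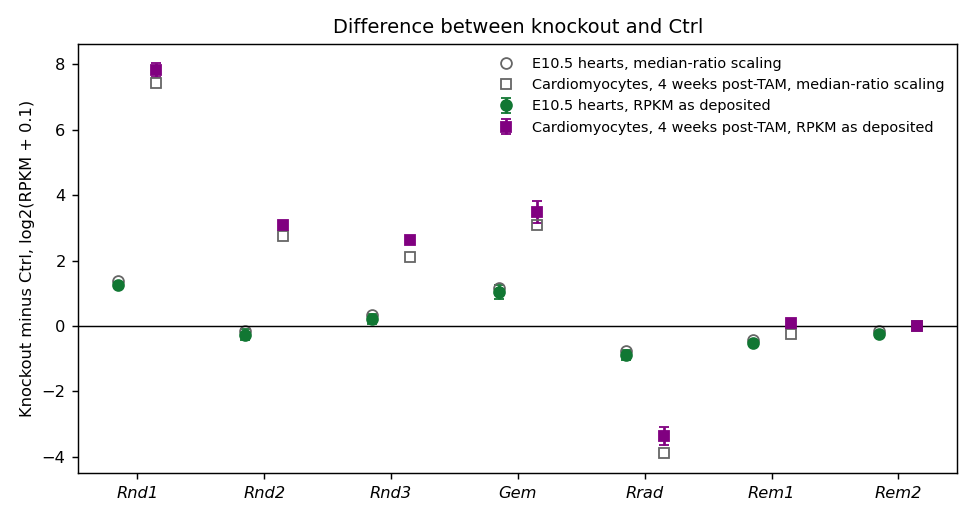
Knockout minus Ctrl difference of each gene on the log2(RPKM + 0.1) scale, circles for E10.5 hearts and squares for cardiomyocytes 4 weeks post-TAM, filled for RPKM as deposited and open after median-ratio scaling. Bars are the standard error of the limma fit and are drawn only for genes that were tested, and Rem1 at 4 weeks is the point that crosses 0, from 0.09 to -0.26.

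Against all genes, these differences stood as follows. At E10.5, 4 of the 7 genes passed the limit on the mean (Rnd2, Rnd3, Gem and Rrad). Gem was the 1 gene called higher, where 0.239% of the 10885 genes tested were called higher, and 0 were called lower, where 0.542% of all were. Every cKO sample was above every Ctrl sample for 1 of the 7 (Gem, 6.50% of genes tested) and below for 1 (Rrad, 22.6%). At 4 weeks, 4 of the 7 passed (Rnd1, Rnd3, Gem and Rrad), of which Rnd1 and Gem passed only through their icKO samples. Of these 3 were called higher, where 28.0% of the 9517 genes tested were, and Rrad was called lower, where 8.45% were. Every icKO sample was above every Ctrl sample for 4 of the 7 (62.0% of genes tested) and below for 1 (18.9%). Since the genes were chosen on these comparisons, nothing is read from the counts. The median difference of the 7 genes was -0.24 at E10.5 and 2.64 at 4 weeks.

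The promoter of Rnd3 is shown because it is the single one among the genes that were higher at 4 weeks for which RefSeq promoter sequence was used here (chr2:51149062-51149361, minus strand, GRCm38.p6, from 250 bases before to 50 after the start). Capitals mark a CArG box, the element bound by serum response factor, and a TATAAA element further downstream.
Rnd3: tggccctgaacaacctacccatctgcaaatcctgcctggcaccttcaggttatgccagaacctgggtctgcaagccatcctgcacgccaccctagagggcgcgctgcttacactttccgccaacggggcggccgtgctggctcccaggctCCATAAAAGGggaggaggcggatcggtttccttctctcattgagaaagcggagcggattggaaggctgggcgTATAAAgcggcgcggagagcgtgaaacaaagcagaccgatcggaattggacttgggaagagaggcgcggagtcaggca
On both strands, a CArG box was present in 1.63% and TATAAA in 13.6% of 32851 promoters of the same length. A cyclic AMP response element (TGACGTCA, 1.79% of promoters) and an AP-1 element (TGANTCA, 7.81%) were not found in this window, and the CArG box, searched by name, and TATAAA did not overlap. Promoters of Rem1 and Rem2, which held none of these elements, were the other 2 used, and those of Rnd1, Rnd2, Gem and Rrad were not used here. The window of Rnd3 had a GC content of 59.7% and 20 CpG, Rem1 had 68.0% and 24, and Rem2 had 54.7% and 5, against medians of 52.7% and 7 over all promoters. A match of letters is a description and not a measured binding site.

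The genes that act with the Rnd proteins were then examined at 4 weeks, as lists given in full by count. Among Rnd partners (14 genes, 10 tested) 2 were called higher and 2 lower, where 28.0% and 8.45% of all genes tested were, and the median difference was 0.43, or -0.08 after median-ratio scaling, against 0.57 and 0.03 over all genes. Arhgap35, which encodes p190A RhoGAP, was 8.24, 9.70 and 11.5 RPKM in Ctrl and 37.9, 32.7 and 32.8 RPKM in icKO (log2 difference 1.81 ± 0.13, SE, limma adjusted p = 2.46e-06). Unc5b, a netrin receptor that binds Rnd proteins, was 0.193, 0.532 and 0.441 RPKM in Ctrl and 9.96, 6.73 and 6.12 RPKM in icKO (log2 difference 4.02 ± 0.30, SE, limma adjusted p = 3.62e-06). Both rose in all 3 icKO samples, and Unc5b passed the limit on the mean for testing only through those samples. The plexins Plxnb1, with a log2 difference of -3.82 ± 0.22 (SE, limma adjusted p = 9.05e-07), and Plxnd1, with -1.04 ± 0.31 (SE, limma adjusted p = 0.0113), fell, and the call of Plxnd1 was lost with a pseudocount of 1, without Ctrl replicate 3 and without icKO replicate 2. The other 2 plexins of the list, Plxnb2 (log2 difference 0.80, limma adjusted p = 7.88e-05) and Plxna1 (0.71, limma adjusted p = 0.000985), were higher in every icKO sample and short of the limit for a call. Plxnb1 was 6.83, 8.86 and 8.79 RPKM in the Ctrl samples, and 0.413, 0.382 and 0.699 RPKM remained in icKO. Arhgap5, which encodes the other p190 RhoGAP, was not called (log2 difference -0.25).

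RhoA itself and its kinases changed by less than the limit. Rhoa was 35.2, 37.8 and 38.9 RPKM in Ctrl and 61.9, 63.8 and 59.1 RPKM in icKO (log2 difference 0.72 ± 0.08, SE, limma adjusted p = 2.46e-05). Rock1 had a log2 difference of 0.72 and Rock2 one of 0.67, near the median of all genes of 0.57. Per Rhoa transcript, Rnd3 was 0.0873, 0.0977 and 0.107 in Ctrl and 0.409, 0.348 and 0.371 in icKO, and Rnd1 was 0.000966, 0.00138 and 0.00345 in Ctrl and 0.667, 0.568 and 0.617 in icKO. These ratios within a sample were higher in every icKO sample. Of the RhoA-ROCK arm (31 genes, 25 tested) 12 were called higher and 0 lower as deposited, where 28.0% and 8.45% of all genes tested were, and 6 higher after median-ratio scaling. With RPKM as deposited, the limma test called none of the arm lower, and 0 had an unadjusted p below 0.05 in that direction. The median difference of the arm was 0.89, or 0.35 after median-ratio scaling, against 0.57 and 0.03 over all genes. The largest were Cfl1, which encodes the actin-severing cofilin (log2 difference 2.83), Arhgap1, a RhoGAP (2.62), and Myl9, a myosin light chain (2.33). Srf, which encodes serum response factor, was called higher as deposited with a log2 difference of 1.11 ± 0.11 (SE, limma adjusted p = 2.18e-05). Once the median of 0.57 over all genes is taken off, the difference of Srf was under the limit of 1 for a call.

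Of the other Ras family GTPases (31 genes, 20 tested) 6 were called higher and 1 lower as deposited, beside 28.0% and 8.45% of all genes tested, against 2 higher and 5 lower after median-ratio scaling. The median difference of the list was 0.48, or -0.15 after that scaling, beside 0.57 and 0.03 over all genes. Rras2, Rras and Rap1b led those higher (log2 difference 2.63, 2.03 and 1.5). Rasl10a, the 1 called lower, was 4.57, 2.05 and 0.957 RPKM in Ctrl and 0.374, 0.269 and 0.452 RPKM in icKO. Its log2 difference was -2.26 ± 0.48 (SE, limma adjusted p = 0.00195), and its call was lost without Ctrl replicate 1.

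Among the channel genes on which RGK proteins act, the pore gene Cacna1c and the β subunit gene Cacnb2 fell at 4 weeks. Of the high-voltage-activated calcium channel subunits (14 genes, 4 tested) 1 was called higher and 2 lower, beside 28.0% and 8.45% of all genes tested, with a median difference of -0.14. Cacna1c, which encodes the pore of the L-type channel of heart muscle, was 36.036, 40.1 and 38.9 RPKM in Ctrl and 12.5, 13.4 and 12.5 RPKM in icKO (log2 difference -1.57 ± 0.08, SE, limma adjusted p = 5.57e-07). Cacnb2, which encodes its main cardiac β subunit, was 14.4, 15.975 and 15.2 RPKM in Ctrl and 6.29, 6.34 and 6.43 RPKM in icKO (log2 difference -1.24 ± 0.09, SE, limma adjusted p = 2.23e-06). Both fell in all 3 icKO samples, while Cacnb1, the β subunit best known from skeletal muscle, rose from 1.71, 1.96 and 2.33 RPKM to 5.46, 7.57 and 5.13 RPKM (log2 difference 1.54 ± 0.18, SE, limma adjusted p = 4.49e-05). Cacna2d1, which encodes the α2δ subunit, was 35.8, 36.3 and 33.6 RPKM in Ctrl and 74.9, 62.9 and 67.9 RPKM in icKO, just short of the limit for a call (log2 difference 0.96 ± 0.09, SE, limma adjusted p = 9.58e-06).

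Rrad was lower relative to the channel as well as in itself. Per Cacna1c transcript it was 1.39, 2.51 and 2.86 in 4-week Ctrl and 0.498, 0.690 and 0.689 in icKO. Per Cacnb2 transcript it was 3.48, 6.30 and 7.30 in Ctrl and 0.991, 1.45 and 1.34 in icKO. At E10.5 the ratio to Cacna1c was 3.24, 2.23 and 2.47 in Ctrl and 1.35, 1.41 and 1.74 in cKO, and that to Cacnb2 was 3.94, 3.08 and 2.92 and then 2.24, 2.11 and 2.53. None of these 4 pairs of groups overlapped, and the ratios are a description, since Rrad was chosen for its change.

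**Figure D4:**
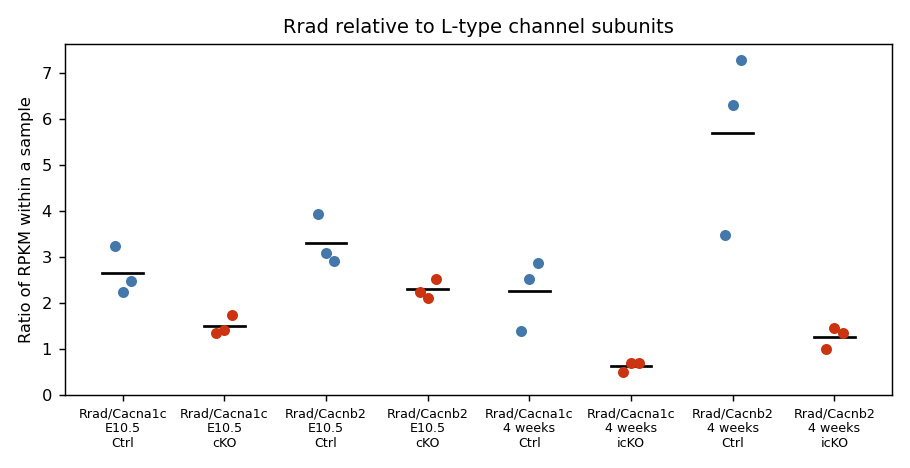
Ratio of Rrad RPKM to Cacna1c RPKM and to Cacnb2 RPKM within each sample, Ctrl in blue and knockout in red, with a bar at the mean of 3 samples. In each pair the knockout samples lie below the Ctrl samples, at 0.498 to 0.690 per Cacna1c at 4 weeks against 1.39 to 2.86.

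Among RGK-binding proteins, which are mostly calmodulin, 14-3-3 proteins, protein kinase A subunits and calmodulin-dependent kinases, with the cytoskeletal partners Gmip, Kif9 and Ezr (17 genes, 14 tested), 8 were called higher and 0 lower at 4 weeks as deposited, where 28.0% and 8.45% of all genes tested were, and 2 higher after median-ratio scaling. In the limma test of RPKM as deposited, 0 of them had an unadjusted p below 0.05 on the lower side. The median difference of the list was 1.17, or 0.64 after median-ratio scaling, against 0.57 and 0.03 over all genes. Among those called, the calmodulin genes Calm2 and Calm3 had log2 differences of 2.05 and 1.53. The genes Ywhab, Ywhah, Ywhaq and Ywhaz for 14-3-3 proteins and Prkacb for a catalytic subunit of protein kinase A were also called higher.

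At E10.5 none of these 5 lists held a gene called in either direction by limma. At an unadjusted p below 0.05 there were 4 lower among the other Ras family genes, 2 higher among the Rnd partners, 4 higher in the RhoA-ROCK arm, 1 higher and 2 lower among the calcium channel subunits, and 0 among the RGK-binding proteins. Cacnb2 was 10.3, 9.10 and 11.6 RPKM in Ctrl and 7.69, 8.13 and 7.94 RPKM in cKO (log2 difference -0.37 ± 0.12, SE, limma adjusted p = 0.108). Rhoa and Rock2 had log2 differences of -0.27 and 0.15. Ppp1r12c, a myosin phosphatase subunit of the RhoA-ROCK arm, had the single adjusted p below 0.05 in the lists (log2 difference 0.54, limma adjusted p = 0.0457), short of the limit of 1. Rock1 had -0.03, which was 0.09 after median-ratio scaling, and Cacna1c had -0.09, which was 0.03 after that scaling. Whether a gene changed by a different amount at the 2 stages was not tested.

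**Figure D5:**
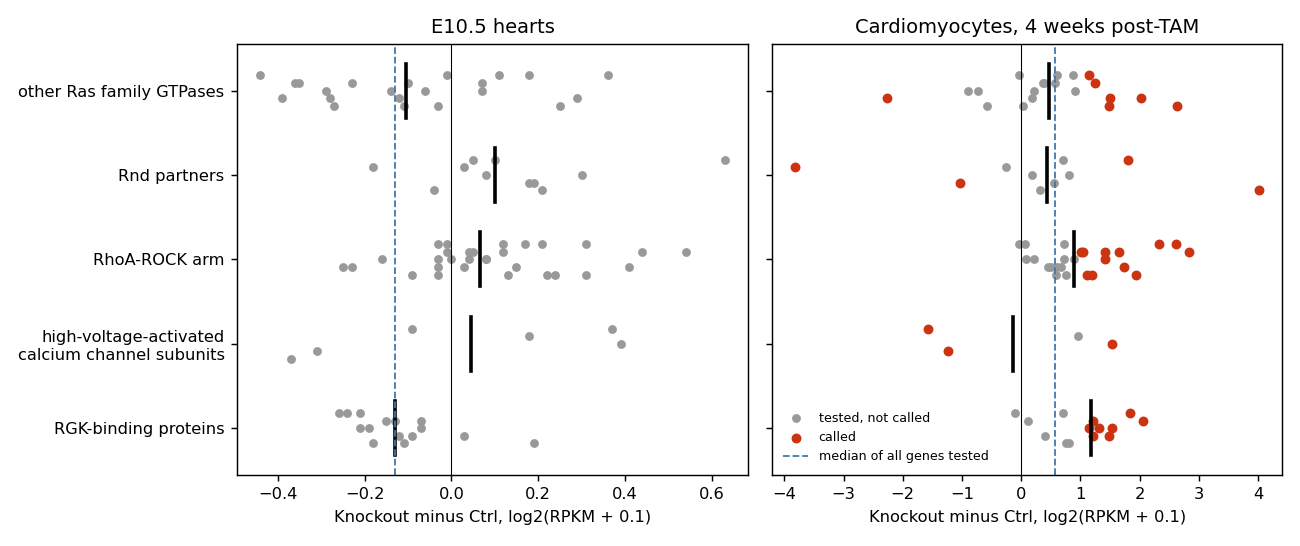
Knockout minus Ctrl difference on the log2(RPKM + 0.1) scale of each tested gene in 5 lists, E10.5 hearts on the left and cardiomyocytes 4 weeks post-TAM on the right, with unlike horizontal ranges. Red points were called, grey points were not, black bars are list medians, and the dashed line is the median of all genes tested, -0.13 at E10.5 and 0.57 at 4 weeks.

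Summed markers of several cell types in the samples differed between genotypes. In bulk samples, fewer cells of a type and less RNA per cell cannot be told apart. Of 10 cardiomyocyte markers, all tested, 6 were called lower and 1 higher at 4 weeks, where 8.45% and 28.0% of all genes tested were. Their summed level was 25967 to 27497 RPKM in Ctrl and 9527 to 12566 RPKM in icKO. At E10.5 the sum was 6597 to 9694 RPKM in Ctrl and 4711 to 5586 RPKM in cKO, with 1 called lower, where 0.542% of all genes tested were. The ratio of the mean sums, knockout over Ctrl, was 0.419 at 4 weeks and 0.632 at E10.5, beside 0.0919 and 0.533 for Rrad. Single cardiomyocyte markers spread widely around these sums. At 4 weeks Pln had a log2 difference of -4.56 and Myh6 -3.34, while Casq2 had 0.42 and Nppa 2.81, beside -3.36 for Rrad. At E10.5 Pln had -1.61 and Myl2 -1.08, while Casq2 had 0.90 and Ttn 0.17, beside -0.89 for Rrad. Fibroblast markers (10 genes, 6 tested) were 16.2 to 21.8 RPKM in 4-week Ctrl and 62.6 to 90.6 RPKM in icKO. Of these, 5 were called higher and 1 lower, where 28.0% and 8.45% of all genes tested were. Mural and smooth muscle markers (9 genes, 6 tested) were 48.9 to 73.5 and 244 to 383 RPKM, with 4 called higher. Several markers called higher passed the limit on the mean only through their icKO samples. They were Col1a1, Col1a2, Col3a1 and Postn among fibroblast markers, Cnn1 and Pdgfrb among mural markers, and the macrophage marker C1qb. The rise of the mural sum was mostly Cnn1, since without it the sum was 48.7 to 73.4 RPKM in Ctrl and 53.2 to 83.6 RPKM in icKO. Endothelial markers, all 10 tested, overlapped at 29.5 to 75.7 RPKM in Ctrl and 67.4 to 115 RPKM in icKO. Of these, 2 were called higher, a smaller share than the 28.0% of all genes tested. Macrophage markers (10 listed, 3 tested) were 3.31 to 5.56 and 8.15 to 11.4 RPKM, with 2 called higher. At E10.5 the mural sum was 507 to 614 RPKM in Ctrl and 690 to 843 RPKM in cKO, with Cnn1 called higher, where 0.239% of all genes tested were. The part of these cells in the Rnd and Gem levels was not tested. At 4 weeks the ratio of mean levels, icKO over Ctrl, was 518 for Rnd1, 6.36 for Rnd3 and 20.3 for Gem, beside 3.68 for the fibroblast sum, 5.37 for the mural sum and 2.21 for the macrophage sum. Single markers moved by more than their sums, among them the matricellular Postn, which was 0.249, 0.504 and 0.348 RPKM in Ctrl and 26.2, 25.0 and 22.044 RPKM in icKO, and the collagen gene Col1a1 (log2 difference 4.43).

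The genes whose profiles over the 6 samples at 4 weeks were nearest to those of the 4 tested genes were found by the root mean square distance of centred log2 values. For Rnd1 they were Lgals3, Gpnmb and Hspa1b, with distances of 0.506, 0.687 and 0.753, more than for the other 3 genes. Lgals3, which encodes galectin-3, was 0.055, 0.124 and 0.128 RPKM in Ctrl and 60.0, 23.9 and 21.9 RPKM in icKO, and Hspa1b has a near-identical copy, Hspa1a, with which reads may be shared. For Rnd3 they were Arhgap1, Clic1 and Cnnm4, with distances of 0.0681, 0.0710 and 0.0734. Arhgap1 was 2.29, 3.02 and 3.05 RPKM in Ctrl and 18.0, 17.0 and 17.4 RPKM in icKO. For Gem they were Bin1, Fstl1 and Kctd10 (0.0793, 0.144 and 0.161), and Bin1, which shapes the membrane tubules of muscle cells, was 0.036, 0.134 and 0.167 RPKM in Ctrl and 2.54, 2.43 and 1.89 RPKM in icKO. For Rrad they were Ppargc1b, a coactivator of mitochondrial genes, the potassium channel gene Kcnj5, and Pnmt (0.261, 0.278 and 0.285). Kcnj5 was 11.8, 13.2 and 15.7 RPKM in Ctrl and 0.826, 1.40 and 1.43 RPKM in icKO. All of these distances are over 6 samples that fall into 2 groups, so that a like difference between the groups carries most of each.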

How the data were processed

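Total RNA from 3 samples per group was sequenced after ribosomal RNA depletion. The authors aligned the reads to mm10 and deposited a table per stage with an RPKM value for each gene and sample; the submitters' processing notes name cutadapt 2.6, STAR 2.5.3a, HOMER 4.11.1 and DESeq2 1.12.4. The deposited tables also hold the authors' mean RPKM, their log2 fold changes and their FDR, an adjusted p-value, which were used in no step. In both tables the knockout columns are headed icKO, and those of the E10.5 table were taken as cKO. The values are RPKM and not counts, so limma 3.58.1 in R 4.3.3 (eBayes with trend) was fitted for each stage alone to log2(RPKM + 0.1) of genes with a mean RPKM above 1, with Benjamini-Hochberg adjustment over all genes tested. A call needed an adjusted p below 0.05 and a log2 difference beyond 1.

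Reads per sample were estimated from the steps between low RPKM values and GENCODE transcript lengths. Of low values, 63.2 to 71.2% lay within 0.1 of a whole read, where 20% would by chance at a depth set beforehand. Each depth was chosen to bring these same values near whole reads, so the shares are no test of it. The share within 0.1 of a whole read is too low for a count test, and read numbers are estimates. Calls were tested on simulated data: at 4 weeks 87 of 100 genes changed by 1.5 on the log2 scale were recovered, and at E10.5 85 of 100. Only a small set of genes was changed there, and false calls are not given here. The simulation therefore does not cover calls under the median shift of 0.57 at 4 weeks. Python 3.11.15, pandas 2.3.3 and scipy 1.17.1 were used.

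The members and lists were chosen with earlier results of these data known. Genes named were all 7 members, Med30, the 3 called genes of each list and direction with the largest difference and no overlap of groups, Rhoa, Rock1, Rock2, Cacna1c, Cacnb2, and the 3 genes nearest in profile to each member with a mean above 1 at 4 weeks. Arhgap5, Plxna1, Plxnb2, Cacna2d1, Srf, Ppp1r12c, Gmip, Kif9, Ezr, Vat1, single markers and the remaining called RGK-binding genes were named after their values were seen. A further gene of this rule, 1 further gene list and the coding end of Rnd1 are not reported here. Alternatives were other pseudocounts, filters and scalings, eBayes without trend, a replicate block and leaving out each sample.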

Additional observations from a re-analysis of the deposited data

Results flagged for a closer look

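The following genes of the partner lists had a log2 difference of opposite sign at E10.5 and at 4 weeks, and the difference between the stages was not tested, since the tables were normalised separately and hold unlike tissue. Calm2 was -0.15 at E10.5 and 2.05 at 4 weeks, and Calm3 -0.21 and 1.53. Rhoa was -0.27 and 0.72, Rhoj -0.15 and 1.64, and Rras2 -0.10 and 2.63. In the other direction, Plxnd1 was 0.18 at E10.5 and -1.04 at 4 weeks, and Rhobtb1 was 0.25 and -2.50. None of the E10.5 values was called by limma, and the median of all genes there was -0.13.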

How the results depend on the processing

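All directions of Rnd1, Rnd3, Gem and Rrad at 4 weeks held under the 15 alternatives, and the calls of Rnd1, Rnd3 and Rrad did too. These genes were chosen on the same comparisons, and Rnd1 and Gem were tested only through their icKO samples. The held directions and calls thus describe how the values respond to processing and are no independent support. The call of Gem at 4 weeks was lost with a limit of 5 on the mean RPKM, with median-ratio scaling and without each icKO replicate, because its mean then fell under the limit for testing. At E10.5 the number of members called higher went from 1 to 0 with a pseudocount of 1, no filter, a limit of 5 or eBayes without trend, and was 0 to 1 as each sample was left out (Gem kept its call without cKO replicate 1 and lost it without any other). The number called lower there was 0 to 1, with Rrad called without Ctrl replicate 2.

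At 4 weeks the genes called higher among the other Ras family GTPases went from 6 to 2 with median-ratio scaling and 2 with quantile normalisation, and those called lower from 1 to 3 with no filter, 0 with a limit of 5, 5 and 4 with these scalings, 2 when scaled without the 20 most abundant genes, and 0 to 3 as each sample was left out (0 without Ctrl replicate 1, 2 without Ctrl replicate 3 or icKO replicate 2, 3 without icKO replicate 1). Rnd partners called higher went from 2 to 1 with a limit of 5, and those called lower from 2 to 1 with a pseudocount of 1 and 0 with a limit of 5, and were 1 to 2 as each sample was left out (1 without Ctrl replicate 3 or icKO replicate 2, when Plxnd1 was lost). The RhoA-ROCK arm went from 12 higher to 6 and 7 with median-ratio and quantile scaling. Calcium channel subunits called higher went from 1 to 4 with no filter and 0 with a limit of 5, and were 1 to 2 as each sample was left out (2 without icKO replicate 2). RGK-binding proteins called higher went from 8 to 2, 3 and 5 with median-ratio, quantile and top-20-free scaling. At 4 weeks the median of all genes was 0.57 as deposited, 0.03, 0.07 and 0.33 with these scalings, so fewer genes pass a fixed limit on the higher side.

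At E10.5 the small difference of Cacna1c turned to 0.03, 0.04 and 0.09 with the same scalings, and that of Rock1 to 0.09, 0.10 and 0.15 and to between -0.06 and 0.01 as each sample was left out (0.01 without Ctrl replicate 1); no member that was tested changed sign. Same-numbered samples did not deviate together (r of 0.153, 0.0433 and 0.0450 at 4 weeks and 0.0124, 0.101 and -0.0698 at E10.5), so the numbers were not taken as pairs. A fit with a replicate block kept the 3 members called higher and 1 lower at 4 weeks, and 1 and 0 at E10.5. Depth limits Rnd1, Rnd2 and Rem2 in control cardiomyocytes, where each had an estimated 5 reads or fewer per sample, and Gem and Rem1, whose highest control levels were 0.156 and 0.294 RPKM.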
